A study of Mus musculus with 5 samples.

Results

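Immediate early genes are switched on within minutes of a stimulus, before any new protein has been made, when kinases such as ERK, p38 and PKA activate factors already bound to their promoters (SRF with its partners, CREB). Many of their products are transcription factors of the AP-1, EGR, NR4A and KLF families, while others, such as the DUSP phosphatases, Zfp36 and Btg2, switch the response off again. Heat shock genes encode chaperones that keep proteins folded and are raised by the factor HSF1 when unfolded proteins accumulate. Both groups of genes are also induced while a tissue such as muscle is cut, digested and sorted, so their level in sorted cells holds the handling of the tissue as well as the state of the cells in the animal.

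The 40 genes described here, 31 immediate early and 9 heat shock genes, were chosen by name, and every non-control probe whose design name is one of them was taken. Of these, 39 had a probe under their name, 46 probes in all, among 36409 genes and unnamed features of the array; Hspa1b, the near-identical neighbour of Hspa1a, had none. RNA came from muscle of mdx mice (C57BL/6, labelled DMD/MDX), a model of Duchenne muscular dystrophy, which all groups share. The groups were Sca1+ interstitial cells (sorted as CD34+, a7-integrin+ and Sca1+) of mice given the histone deacetylase inhibitor trichostatin A (TSA) intraperitoneally at 0.6 mg per kg for 45 days, on 2 arrays; muscle stem cells (MuSC, the Sca1- cells of the same gate) of mice given vehicle, on 1 array; and Sca1+ cells of mice given vehicle, on 2 arrays. All groups, vehicle included, are labelled 45 days. The labels give no age, no wild-type mice and no pooling, and do not say whether the replicates are separate animals. The p-values here reflect the spread among the arrays at hand, part or all of which may be technical.

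Levels are log2 of the processed spot signal minus the array's 75th percentile of it, so 0 is the 75th percentile and a step of 1 is a 2-fold change. A probe was compared with itself across arrays. Levels of different probes served to choose the probe of a gene and the genes shown array by array. They were added up only in the summed signals of marker lists, where bright probes weigh most. Before scaling, that percentile was 326 and 452 for TSA, 240 on the MuSC array and 235 and 165 on the vehicle Sca1+ arrays, and 58.5% to 66.9% of spots on an array were well above background. The sorted populations matched their labels in their defining markers: all 8 satellite cell markers were higher and all 8 markers of fibroadipogenic progenitors and fibroblasts were lower in MuSC than in vehicle Sca1+ cells. Of the satellite cell markers, Myf5 entered the test only through the MuSC array. The slide number equals the replicate number, so the MuSC array shares a slide with 1 array of each other group.

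Of the 39 genes with a probe, 36 were well above background on all 5 arrays. Dusp5, a phosphatase of nuclear ERK, was so on 1 TSA array and the MuSC array. Egr3 and Nr4a3, transcription factors of the EGR and NR4A families, were not well above background on any array, and no difference is given for them. The other 37 genes, 29 immediate early and 8 heat shock, entered the test, which was limma over all genes measured with Benjamini-Hochberg adjustment, two-sided, at a threshold of 0.05. Errors printed with log2 differences are the standard errors of that fit.

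RefSeq promoters (GRCm38.p6, from 250 bases before to 50 bases after an annotated start) were at hand for 32 of the 40 genes, 25 immediate early and 7 heat shock. They were read on both strands for binding motifs of the factors named above. The cyclic AMP response element (CRE, TGACGTCA) binds CREB, and its core TGACG, which every full CRE also contains, was counted separately. The core lay in the promoters of 15 of 25 immediate early genes (60%), against 23.0% of all 27025 genes with a promoter, and the full CRE in 2 of 25 (8%), Btg2 and Dusp1, against 2.03%. Of the 7 heat shock genes, 4 held the core (57.1%) and 0 the full CRE. Shown first, as examples of genes with CRE matches, are Fos, Nr4a1 and Dusp1. Others with matches, such as Dusp2 and Btg2, are not shown. Sequences run 5′ to 3′ in the gene's direction, and capitals mark the CRE core in Fos and Nr4a1 and the full CRE in Dusp1; in Nr4a1 the 4 cores stand on the opposite strand and read as the reverse complement.
Fos, chr12:85473640-85473939, plus strand: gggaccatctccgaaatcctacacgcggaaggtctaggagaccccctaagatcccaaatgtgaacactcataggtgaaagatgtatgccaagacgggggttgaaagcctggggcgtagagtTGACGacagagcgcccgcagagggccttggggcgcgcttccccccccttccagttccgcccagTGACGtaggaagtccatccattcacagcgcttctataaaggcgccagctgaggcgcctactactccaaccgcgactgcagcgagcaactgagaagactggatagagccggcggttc
Nr4a1, chr15:101266596-101266895, plus strand: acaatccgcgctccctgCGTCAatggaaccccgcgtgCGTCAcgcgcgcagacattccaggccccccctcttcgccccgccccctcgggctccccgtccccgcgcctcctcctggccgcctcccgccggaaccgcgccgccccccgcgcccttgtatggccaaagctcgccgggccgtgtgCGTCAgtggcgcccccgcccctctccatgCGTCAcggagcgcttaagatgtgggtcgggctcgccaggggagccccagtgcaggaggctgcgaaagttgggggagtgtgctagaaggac
Dusp1, chr17:26508423-26508722, minus strand: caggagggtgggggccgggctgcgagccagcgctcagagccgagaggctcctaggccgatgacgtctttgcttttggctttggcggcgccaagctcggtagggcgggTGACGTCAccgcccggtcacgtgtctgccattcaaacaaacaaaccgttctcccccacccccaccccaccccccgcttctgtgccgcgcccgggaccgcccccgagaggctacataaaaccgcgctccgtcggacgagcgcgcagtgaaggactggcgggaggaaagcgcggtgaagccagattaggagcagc

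The CArG box, the site of SRF, was found by its consensus in 3 of 25 immediate early genes (12%), Egr2, Zfp36 and Dusp5, against 1.81% of all genes. The site bound by EGR proteins (GCGNGGGCG) was in 10 of 25 (40%), against 6.27%. An AP-1 site (TGANTCA) was in 0 of 25, against 8.97%. Of 7 heat shock genes, 3 (42.9%) held a heat shock element of 3 alternating GAA units, against 0.659% of all genes and 0 of the 25 immediate early genes. The 3 are Hsph1 and the neighbours Hspd1 and Hspe1, which lie head to head and share the element. The element was not matched in the windows of Hspa1a, Hspa1b, Hspb1 or Dnajb1, which says only that these exact letters are not there. A match is a description of the sequence and not a test of binding. The Egr2 promoter, from 1 of several annotated starts, shows the CArG box in capitals, and the Hspe1 promoter shows its heat shock elements, which overlap each other.
Egr2, chr10:67537619-67537918, plus strand: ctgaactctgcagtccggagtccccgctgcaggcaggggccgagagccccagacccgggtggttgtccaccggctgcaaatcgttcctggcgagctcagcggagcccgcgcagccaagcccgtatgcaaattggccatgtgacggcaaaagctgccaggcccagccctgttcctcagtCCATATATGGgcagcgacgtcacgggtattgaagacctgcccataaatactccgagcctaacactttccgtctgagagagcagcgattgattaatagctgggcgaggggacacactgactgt
Hspe1, chr1:55087898-55088197, plus strand: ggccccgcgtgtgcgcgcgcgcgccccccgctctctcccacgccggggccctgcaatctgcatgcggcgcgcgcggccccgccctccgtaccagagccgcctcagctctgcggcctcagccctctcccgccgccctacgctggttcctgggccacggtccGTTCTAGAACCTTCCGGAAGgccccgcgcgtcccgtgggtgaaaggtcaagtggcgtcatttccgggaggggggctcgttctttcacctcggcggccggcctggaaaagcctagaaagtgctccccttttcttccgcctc

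Hspa1a and Hspa1b, which encode the inducible Hsp70, are shown because the array names only Hspa1a. Their promoters were identical at 296 of 300 bases, and capitals mark the 4 that differ. Whether the Hspa1a probe also reads transcripts of Hspa1b was not tested, so its values are uncertain as to the gene.
Hspa1a, chr17:34972107-34972406, minus strand: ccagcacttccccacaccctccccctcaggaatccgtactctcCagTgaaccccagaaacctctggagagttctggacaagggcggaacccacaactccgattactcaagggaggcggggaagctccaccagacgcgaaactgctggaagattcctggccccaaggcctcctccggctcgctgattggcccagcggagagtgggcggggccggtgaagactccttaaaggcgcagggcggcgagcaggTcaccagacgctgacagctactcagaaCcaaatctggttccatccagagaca
Hspa1b, chr17:34959189-34959488, minus strand: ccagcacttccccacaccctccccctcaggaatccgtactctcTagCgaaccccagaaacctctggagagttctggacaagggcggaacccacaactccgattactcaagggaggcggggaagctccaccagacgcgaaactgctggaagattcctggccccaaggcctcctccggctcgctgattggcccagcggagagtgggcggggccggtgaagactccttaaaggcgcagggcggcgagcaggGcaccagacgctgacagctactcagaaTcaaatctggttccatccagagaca

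In Sca1+ cells of TSA-treated mice, set against those of vehicle-treated mice, 3 of the 37 genes tested rose and none fell. They were Dusp2, Fosl1 and Nr4a1, and the other 34 did not pass the test; at an unadjusted p under 0.05 there were 16 of the 37, against 6048 of all 26091 genes tested. Across all genes 2.71% were called higher, 0.268% lower and 2.98% in either direction. The genes that rose belong to the immediate early group, 3 of 29, while 0 of the 8 heat shock genes passed (4 of them at an unadjusted p under 0.05 in limma). This split depends on the processing: the heat shock gene Hspb1 was called in 5 of the 9 alternative analyses that kept all arrays. The median log2 difference was 0.37 for the immediate early genes and 0.48 for the heat shock genes, against -0.13 for all genes tested. None of the 3 calls held when any 1 of the 4 Sca1+ arrays was left out, with 0 members called and 8 to 14 at an unadjusted p under 0.05 in each case, while the differences stayed at 1.66 to 1.91 (Dusp2), 1.23 to 1.27 (Fosl1) and 1.18 to 1.30 (Nr4a1). Without either TSA array the fit called no gene on the whole array, so that loss is not particular to these genes. Without either vehicle array the fit still called other genes, so there the loss was not shared by all. All 3 were also lost with no filter on dim probes, and with normexp background correction 15 members were higher and 1, Dusp5, was lower, Fosl1 was lost (0.46) and Dusp2 stayed at a smaller difference (0.97).

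Dusp2, a nuclear phosphatase that switches MAP kinases off, had levels of -0.49 and -0.23 on the TSA arrays against -2.21 and -2.07 on the vehicle arrays. The groups did not overlap, and both TSA arrays lay over 1.5 log2 units above both vehicle arrays. The difference was 1.78 ± 0.17 (limma, adjusted p = 0.0218), 3.44-fold, with 1.73 within slide 1 and 1.84 within slide 2. Its probe lies at chr2:127163930-127163989 in mm9, the build of the array's design.

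Fosl1 encodes Fra-1, an AP-1 subunit that usually appears later and lasts longer than Fos. Its level was -1.10 and -1.08 on the TSA arrays, against -2.36 and -2.31 on the vehicle arrays. Both TSA arrays stood well above both vehicle arrays, and the arrays of a group differed by less than 0.1. The difference came to 1.25 ± 0.14 (limma, adjusted p = 0.0329), 2.38-fold, with 1.26 on slide 1 and 1.23 on slide 2 (probe at chr19:5455496-5455555, mm9).

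Nr4a1 encodes Nur77, an orphan nuclear receptor induced by growth factors, calcium and cyclic AMP. It had 4.95 and 5.07 with TSA, against 3.73 and 3.80 with vehicle, with no overlap. The TSA level was 1.24 ± 0.15 log2 units higher (limma, adjusted p = 0.0367), 2.37-fold, and 1.22 and 1.27 within slides 1 and 2 (probe at chr15:101105071-101105130, mm9). Its relative Nr4a2 did not pass, with 1.28 and 0.96 on the TSA arrays, against 0.17 and -0.14 on the vehicle arrays and a difference of 1.11 ± 0.21 (adjusted p = 0.0890). A second Nr4a2 probe differed by 0.73.

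**Figure D1:**
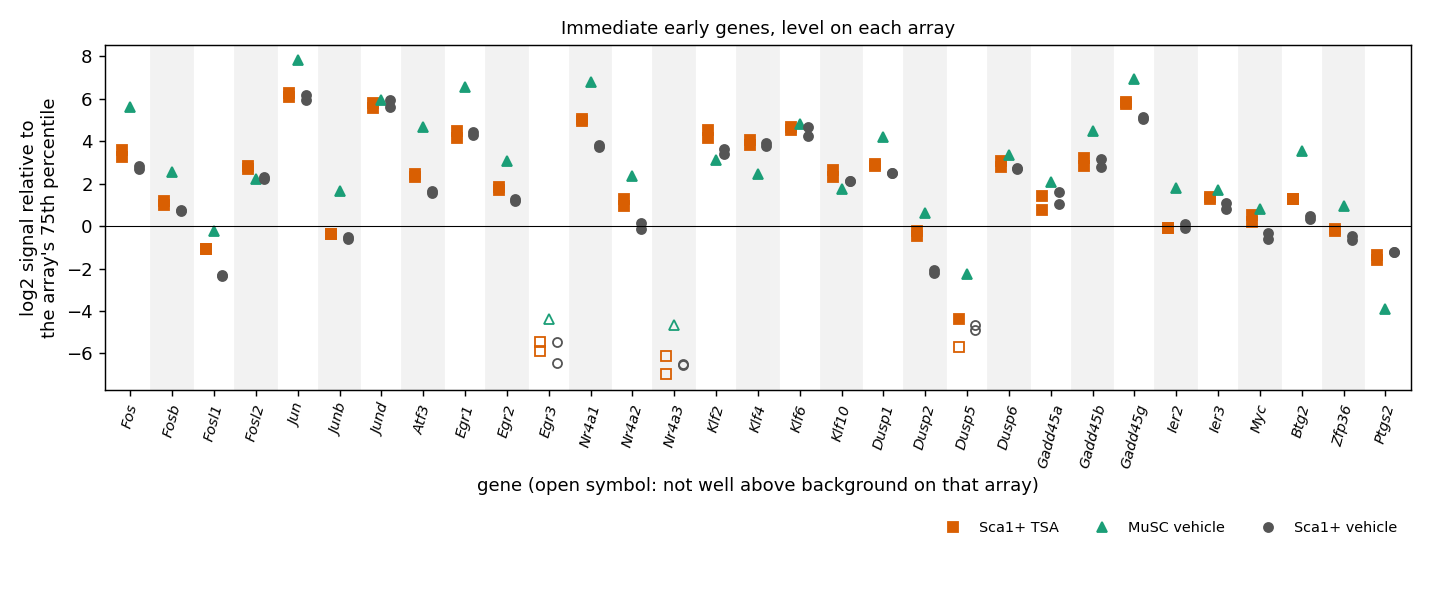
Level of each of the 31 immediate early genes on every array, as log2 signal relative to the array's 75th percentile: squares, 2 Sca1+ TSA arrays; triangles, 1 MuSC vehicle array; circles, 2 Sca1+ vehicle arrays; open symbols, probe not well above background on that array. Dusp2, Fosl1 and Nr4a1 are the genes whose squares stand more than 1 unit above their circles with an adjusted p under 0.05, the MuSC triangle lies above all Sca1+ symbols for 24 of the 29 genes tested, and it lies far below them for Ptgs2.

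The remaining AP-1 genes did not pass the TSA test. Fos, the partner of the Jun proteins, had 3.25 and 3.57 with TSA and 2.67 and 2.85 with vehicle, a difference of 0.65 ± 0.19 (adjusted p = 0.164). Atf3, a stress-induced repressor of the same leucine zipper class, had 2.32 and 2.45 with TSA and 1.66 and 1.54 with vehicle, a difference of 0.78 ± 0.16 (adjusted p = 0.0955). For both genes the TSA arrays lay above the vehicle arrays without overlap. Jun itself had 6.28 and 6.10 with TSA and 6.17 and 5.96 with vehicle, and these ranges overlapped (0.13 ± 0.17). The differences of Fosb, Junb and Jund were 0.36, 0.18 and -0.07. Fosl2 gave 0.50 on the probe used and -0.34 on its other probe, so its direction depends on the probe.

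Egr1, a zinc-finger factor at the head of the growth factor response, had 4.16 and 4.49 with TSA and 4.31 and 4.44 with vehicle, ranges that overlapped, with a difference of -0.05 ± 0.19 (adjusted p = 0.888). Egr2 had 1.69 and 1.84 with TSA and 1.28 and 1.17 with vehicle, a difference of 0.54 ± 0.16 (adjusted p = 0.164). Among the Kruppel-like factors, Klf2, which is known from quiescent endothelium and T cells, differed by 0.81 ± 0.21 (adjusted p = 0.144). The other 3 differed by 0.08 (Klf4), 0.16 (Klf6) and 0.37 (Klf10). The phosphatases Dusp1 and Dusp6 differed by 0.38 and 0.21, and Dusp5 by -0.24 with a standard error of 0.48 near its background.

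Growth arrest and feedback genes gave a similar spread. Btg2, an antiproliferative factor, had 1.30 and 1.26 with TSA and 0.50 and 0.34 with vehicle, a difference of 0.86 ± 0.15 (adjusted p = 0.0798). Myc, a driver of growth, differed by 0.81 ± 0.22 and Gadd45g, a stress sensor upstream of p38, by 0.70 ± 0.15. Neither passed, at adjusted p of 0.146 and 0.108. Gadd45a and Gadd45b, of the same family, differed by -0.24 and 0.04, Ier2 by -0.10 and Ier3 by 0.38. Zfp36, which speeds the decay of mRNAs with AU-rich ends, differed by 0.37. Ptgs2, the inducible cyclooxygenase, was the only 1 of the 37 genes tested with both TSA arrays below both vehicle arrays, at -1.61 and -1.35 against -1.21 and -1.23 (-0.26 ± 0.17).

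All 8 heat shock genes tested had a positive difference with TSA, and none passed; with normexp background correction 4 did (Hsph1, Hspb1, Hsp90aa1 and Hspd1), and the sign of Hspa1a turned (-0.01) with an array left out. Hspb1, the small heat shock protein Hsp27, came closest, with 7.29 and 7.32 with TSA, against 6.37 and 6.26 with vehicle, a difference of 0.99 ± 0.15 (adjusted p = 0.0597). Besides normexp, it was called with quantile normalization, median centring, the deposited values and only probes well above background on all 5 arrays. Hsph1, an Hsp110 that recharges Hsp70 with ATP, had 3.02 on both TSA arrays and 2.26 and 2.18 on the vehicle arrays, 0.80 ± 0.15 (adjusted p = 0.0835). The TSA arrays were the higher ones for both genes, with no overlap. The mitochondrial chaperonin Hspd1 differed by 0.67 ± 0.15 and its lid Hspe1, from the same shared promoter region, by 0.21 ± 0.14. Hsp90aa1, the inducible Hsp90, differed by 0.61 ± 0.18 and Dnajb1, the Hsp40 partner of Hsp70, by 0.36 ± 0.15. The Hsp70 genes were close to 0 on the probes used. Hspa1a had 5.08 and 5.19 with TSA and 4.98 and 5.14 with vehicle (0.08 ± 0.16). The constitutive Hspa8 had 8.26 and 8.29 with TSA and 8.25 and 8.24 with vehicle (0.03 ± 0.14). Other probes of Hspa8 differed by 0.42 and 0.24 with TSA.

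**Figure D2:**
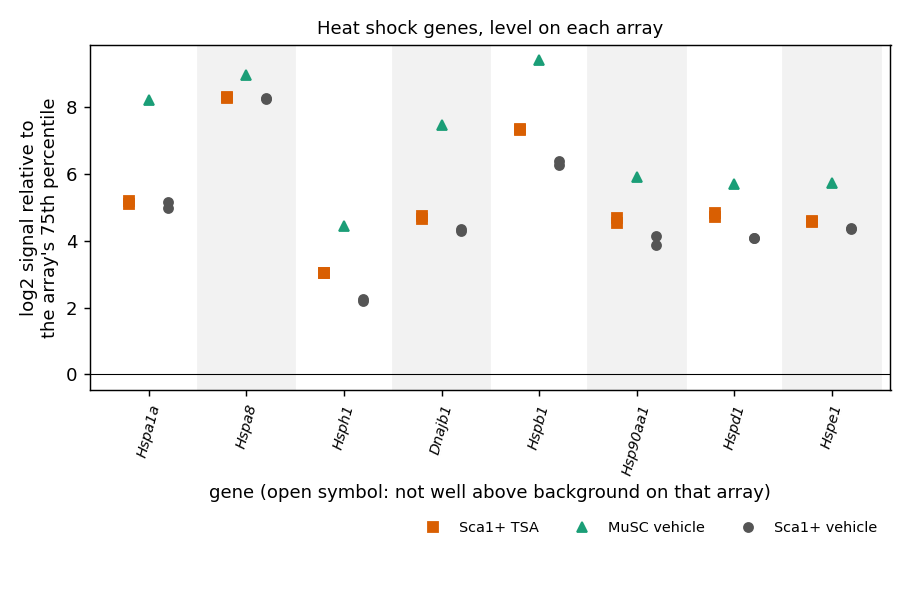
Level of the 8 heat shock genes on every array, as log2 signal relative to the array's 75th percentile: squares, 2 Sca1+ TSA arrays; triangles, 1 MuSC vehicle array; circles, 2 Sca1+ vehicle arrays. The MuSC triangle is the highest symbol for all 8 genes, and for Hspa1a it stands at 8.21 while the 4 Sca1+ arrays lie between 4.98 and 5.19.

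Counted by overlap alone, both TSA arrays lay above both vehicle arrays for 26 of the 37 genes (19 immediate early, 7 heat shock) and below them for 1; the shares over all genes tested were 22.9% and 36.4%. Within slide 1 the median difference was 0.34 for the immediate early and 0.33 for the heat shock genes, and within slide 2 it was 0.42 and 0.59. Differences were positive on slide 1 for 24 of 29 immediate early and 8 of 8 heat shock genes, and the same counts held on slide 2. The difference of the fit was positive for 23 of 29 and 8 of 8, against 10065 of all 26091 genes tested.

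Markers of other cell types differed between the TSA and vehicle arrays as well. Of 8 satellite cell markers, 5 rose with TSA, and their summed signal, in multiples of the 75th percentile, was 40.7 and 42.1 with TSA and 13.2 and 12.7 with vehicle. For differentiating muscle, 5 of 6 rose (13.3 and 14.7 with TSA, 1.55 and 1.46 with vehicle), and for pericytes and smooth muscle 5 of 7 (307 and 316 with TSA, 42.5 and 43.2 with vehicle). Mast cell markers rose in 4 of 5 (27.8 and 25.6 with TSA, 0.66 and 0.63 with vehicle), red cell genes in 3 of 3 (601 and 627 with TSA, 39.1 and 40.8 with vehicle) and Schwann cell markers in 4 of 5 (16.2 and 18.3 with TSA, 2.92 and 2.86 with vehicle). Fibroadipogenic markers fell in 1 of 8 (1411 and 1484 with TSA, 2454 and 3540 with vehicle), and 1 of 6 endothelial markers rose. By overlap alone, both TSA arrays lay below both vehicle arrays for all 8 fibroadipogenic markers, against 36.4% of all genes tested. For the endothelial markers both TSA arrays lay above for 4 of 6, against 22.9% of all genes tested, and below for 1, Kdr. None of 6 macrophage markers passed, with 3 differences positive and 3 negative. Their summed signal was 120 and 124 with TSA and 166 and 236 with vehicle. The bright Itgam probe weighs most in that sum, at 6.65 and 6.72 with TSA and 7.19 and 7.67 with vehicle. Both TSA arrays lay above both vehicle arrays for Adgre1, Cd68 and Lyz2, and below them for Csf1r, Cd14 and Itgam. The part of these markers in the values of the immediate early and heat shock genes was not tested, and in such bulk samples a change in cell numbers and a change in RNA per cell cannot be told apart.

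**Figure D3:**
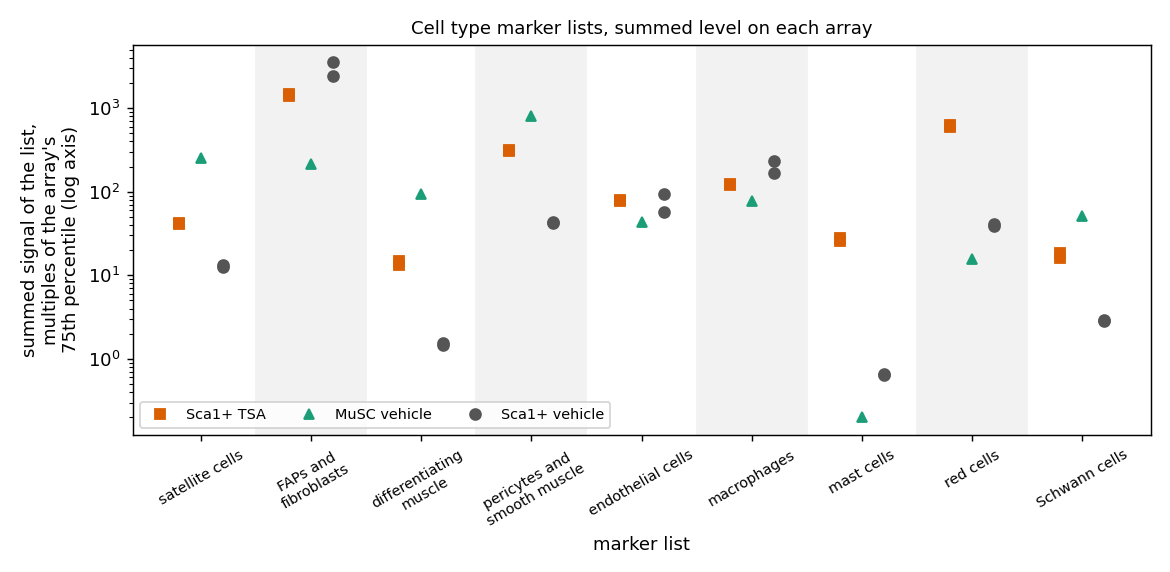
Summed signal of each marker list on every array, in multiples of the array's 75th percentile on a log axis: squares, 2 Sca1+ TSA arrays; triangles, 1 MuSC vehicle array; circles, 2 Sca1+ vehicle arrays. The squares stand above the circles for satellite, muscle, smooth muscle, mast, red and Schwann cell markers, and below them for fibroadipogenic and macrophage markers. For endothelial markers the squares lie between the circles. Bright probes weigh most in a sum: Itgam in the macrophage list and Kdr in the endothelial list.

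In vehicle MuSC, set against vehicle Sca1+ cells, 26 of the 37 genes were higher, 2 were lower (Klf4 and Ptgs2) and 9 did not pass. The 26 include Dusp5, which entered the test only through the MuSC array. Over all 26088 genes tested, 10.5% were called higher, 11.7% lower and 22.2% in either direction. Of the 29 immediate early genes 19 were higher, and of the 8 heat shock genes 7. The median difference was 1.75 for the immediate early genes and 2.07 for the heat shock genes, against -0.04 for all genes tested. MuSC rest on 1 array, which the fit assumes to vary like the Sca1+ arrays. The comparison uses the same 2 vehicle arrays as the TSA comparison, so the results of both are not independent of each other.

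The MuSC array lay above all 4 Sca1+ arrays for 32 of the 37 genes (24 immediate early, 8 heat shock), against 33.7% of all genes tested, and below all 4 for Klf2, Klf4, Klf10 and Ptgs2, against 28.5%. On slide 1, against the vehicle array of that slide, the median difference was 1.72 for the immediate early and 1.97 for the heat shock genes; against the vehicle array of slide 2 it was 1.71 and 2.16. All 6 markers of differentiating muscle were higher in MuSC (summed signal 92.9 in MuSC, 1.55 and 1.46 in vehicle Sca1+ cells), as were 6 of 7 of pericytes and smooth muscle (806 in MuSC, 42.5 and 43.2 in vehicle Sca1+ cells) and 5 of 5 of Schwann cells (51.5 in MuSC, 2.92 and 2.86 in vehicle Sca1+ cells). Lower in MuSC were 4 of 6 endothelial markers, with 1 higher (summed signal 43.5 in MuSC, 56.9 and 94.4 in vehicle Sca1+ cells), and 2 of 3 red cell genes (15.5 in MuSC, 39.1 and 40.8 in vehicle Sca1+ cells). So were 1 mast cell marker of 5 and 1 macrophage marker of 6. The share of these cells in the members' values was not tested.

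The largest differences came from both classes of genes. Hspa1a stood at 8.21 in MuSC, against 4.98 and 5.14 in vehicle Sca1+ cells, a difference of 3.15 ± 0.19 (limma, adjusted p = 0.00223), 8.86-fold. Its co-chaperone Dnajb1 stood at 7.46 in MuSC, against 4.36 and 4.29 (3.14 ± 0.18, adjusted p = 0.00200), and Hspb1 at 9.38, against 6.37 and 6.26 (3.07 ± 0.18, adjusted p = 0.00212). Each of these MuSC values was far above all 4 Sca1+ arrays. Hsph1 was higher by 2.22 ± 0.18, Hsp90aa1 by 1.91 ± 0.22, Hspd1 by 1.61 ± 0.18 and Hspe1 by 1.35 ± 0.18, all called. Hspa8, the constitutive Hsp70, did not pass on the probe used (0.71 ± 0.18, adjusted p = 0.0581), while its 2 other probes differed by 1.59 and 1.13.

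Among the AP-1 genes, 6 of 8 were higher in MuSC. Fos was at 5.62 in MuSC, against 2.67 and 2.85 in vehicle Sca1+ cells (2.86 ± 0.23, adjusted p = 0.00397), and Atf3 at 4.67, against 1.66 and 1.54 (3.07 ± 0.19, adjusted p = 0.00230). Jun was at 7.81, against 6.17 and 5.96 (1.75 ± 0.21, adjusted p = 0.00969). In all 3 the MuSC array was the highest of the 5. Junb (2.24), Fosl1 (2.10) and Fosb (1.80) were also higher. Jund, which is expressed more constantly than its relatives, did not pass (0.18 ± 0.24), nor did Fosl2, with -0.02 on the probe used and 0.80 on the other.

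Both EGR genes tested and both NR4A genes tested were higher in MuSC. Egr1 was at 6.55 in MuSC, against 4.31 and 4.44 in vehicle Sca1+ cells (2.17 ± 0.23, adjusted p = 0.00729), and Egr2 was higher by 1.84 ± 0.19. Nr4a1 was at 6.79 in MuSC, against 3.73 and 3.80 (3.02 ± 0.18, adjusted p = 0.00222), 8.13-fold, and Nr4a2 was higher by 2.35 ± 0.26. The MuSC array was above all Sca1+ arrays for the 4 genes. Dusp2 was at 0.64 in MuSC, against -2.21 and -2.07 (2.78 ± 0.21, adjusted p = 0.00354), and Dusp1, which inactivates p38 and JNK, at 4.22, against 2.50 and 2.51 (1.72 ± 0.18, adjusted p = 0.00712). Dusp5 was at -2.26 in MuSC, against -4.68 and -4.91 in vehicle Sca1+ cells. Dusp5 was at least 4.80-fold higher, a bound because the vehicle arrays were not well above background. It entered the test only through the MuSC array, where it is high, so its call (limma, adjusted p = 0.0478) is not separate support. That call was lost without either vehicle array, with normexp background correction and with no filter on dim probes. Dusp6, the cytosolic phosphatase of ERK, did not pass (0.63 ± 0.22).

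Btg2 was at 3.53 in MuSC, against 0.50 and 0.34 in vehicle Sca1+ cells (3.11 ± 0.19, adjusted p = 0.00216), 8.66-fold. Gadd45g was at 6.94, against 5.12 and 5.07 (1.85 ± 0.18, adjusted p = 0.00645), and Gadd45b was higher by 1.51 ± 0.28. Gadd45a, which p53 induces after DNA damage, did not pass (0.77 ± 0.40), and its MuSC array still lay above the others. Ier2 (1.77), Zfp36 (1.48) and Myc (1.26) were higher, and Ier3, a survival factor, was not called (0.79 ± 0.22, adjusted p = 0.0785). The calls of Myc and Gadd45b, at adjusted p of 0.0381 and 0.0287, did not all hold with an array left out: that of Myc was lost without any 1 of the 4 Sca1+ arrays, and that of Gadd45b without any of them except vehicle replicate 1. The calls of both genes were also lost with no filter on dim probes.

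Of the Kruppel-like factors 0 of 4 were higher and 1 was lower in MuSC. Klf4, known from epithelium and stem cells, was lower in MuSC at 2.48, against 3.79 and 3.91 in vehicle Sca1+ cells (-1.37 ± 0.21, adjusted p = 0.0177), and this call was lost without either vehicle array, at differences of -1.43 and -1.31. With no filter on dim probes the Klf4 call was lost too. Klf6 stood at 4.80 in MuSC, against 4.66 and 4.26, and did not pass (0.34 ± 0.25). Klf2 (-0.40 ± 0.26) and Klf10 (-0.34 ± 0.21), the factor TGF-beta induces, did not pass either, and the MuSC array lay below both vehicle arrays for both. Ptgs2 had -3.91 in MuSC, against -1.21 and -1.23 in vehicle Sca1+ cells, the lowest of the 5 arrays by over 2 log2 units (-2.69 ± 0.21, adjusted p = 0.00358, and -1.14 with normexp background correction).

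**Figure D4:**
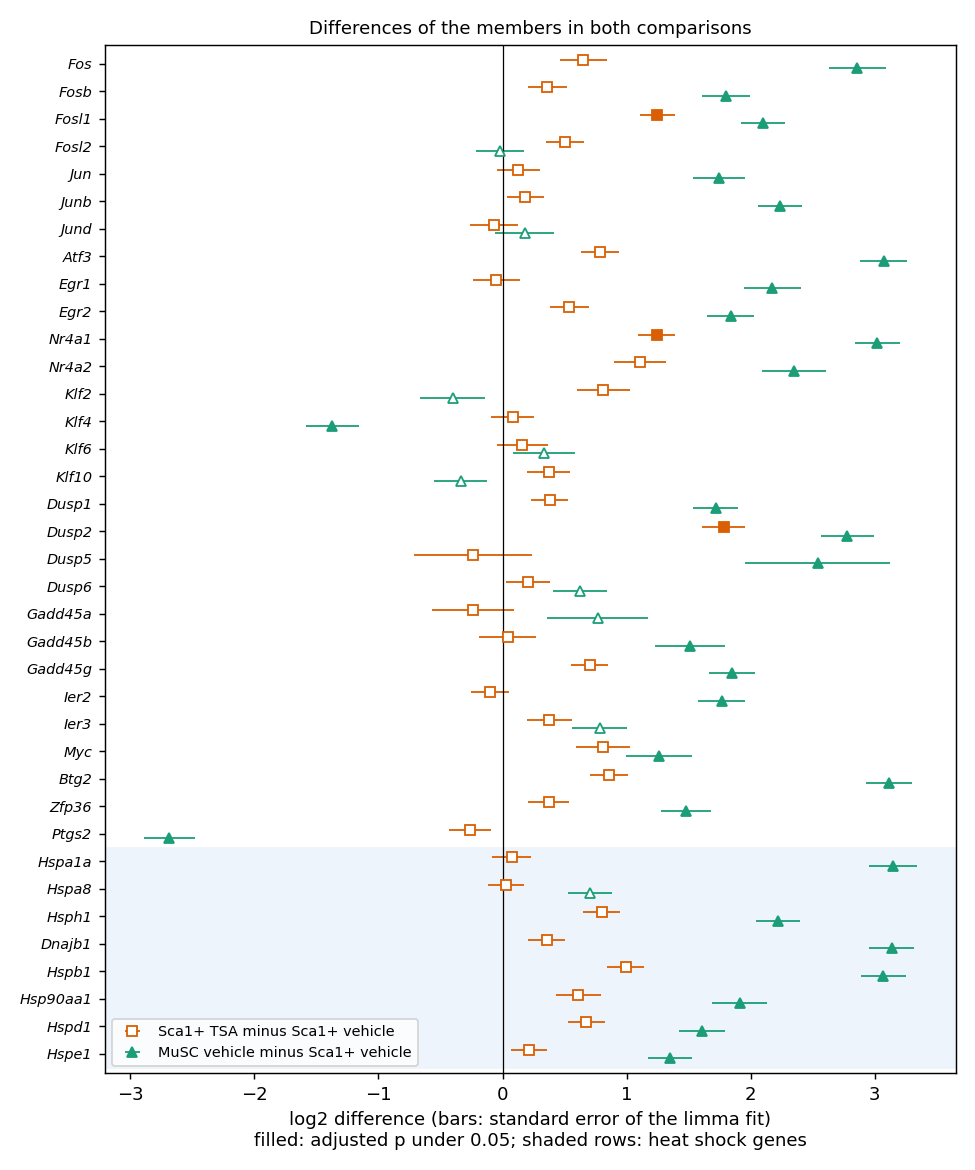
Log2 difference of each of the 37 genes tested with its standard error from the limma fit: squares, Sca1+ TSA minus Sca1+ vehicle; triangles, MuSC vehicle minus Sca1+ vehicle; filled symbols, adjusted p under 0.05; shaded rows, heat shock genes. Triangles run to 3.15 for Hspa1a and down to -2.69 for Ptgs2, the squares lie between -0.26 and 1.78, and both sets share the same 2 vehicle arrays; the MuSC value of Dusp5 is fitted against vehicle arrays not well above background.

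Set side by side, with the shared vehicle arrays in mind, the 8 genes with the largest MuSC differences had TSA differences between 0.08 and 1.78. In order, Hspa1a had 3.15 in MuSC and 0.08 with TSA, Dnajb1 3.14 and 0.36, Btg2 3.11 and 0.86, and Atf3 3.07 and 0.78. Hspb1 had 3.07 in MuSC and 0.99 with TSA, Nr4a1 3.02 and 1.24, Fos 2.86 and 0.65, and Dusp2 2.78 and 1.78. Further genes called in MuSC had values near 0 with TSA: Egr1 had 2.17 in MuSC and -0.05 with TSA, Ier2 1.77 and -0.10, Jun 1.75 and 0.13, and Gadd45b 1.51 and 0.04. Klf2 ran the other way, at -0.40 in MuSC and 0.81 with TSA. None of these contrasts between the comparisons was tested.

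Genes of the same pathways outside the list were counted next. Of 30 other early response genes tested, 2 rose with TSA, both MAP kinase phosphatases like Dusp2: Dusp4 with -2.11 and -2.85 on the TSA arrays, against -4.76 and -5.13 on the vehicle arrays, which were not well above background (at least 4.11-fold higher, adjusted p = 0.0412), and Dusp8 with -0.06 and 0.19, against -1.90 and -1.67 (1.85 ± 0.18, adjusted p = 0.0226). Neither pair of groups overlapped. In MuSC 16 of the 30 were higher and 0 lower, among them Dusp4 (at least 32.6-fold, against the same dim vehicle arrays) and, in log2 units, Dusp10 (3.14), Csrnp1 (2.40), Trib1 (2.37), Ccn1 (2.29) and Arc (2.23). These 16 include Egr4, which entered the test only through the MuSC array. The list's median was 0.30 with TSA and 0.99 in MuSC. Of 11 regulators of these genes, such as SRF, its partners and HSF1, none passed with TSA; in MuSC Srf was higher (1.46 ± 0.20, adjusted p = 0.0127) and Elk3, an SRF partner that can repress, was lower (-0.87 ± 0.20, adjusted p = 0.0475).

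Of 26 other chaperones tested, 4 rose with TSA, all small heat shock proteins known from muscle. Hspb6 had 1.25 and 1.23 on the TSA arrays, against -0.49 and -0.34 on the vehicle arrays (1.66 ± 0.15, adjusted p = 0.0192), and Hspb2 had 2.47 and 2.74, against 0.89 and 1.04 (1.64 ± 0.18, adjusted p = 0.0285). Hspb7 rose by 1.82, and Hspb3 was at least 1.38-fold higher, its vehicle arrays not being well above background. The TSA groups of the 4 lay above the vehicle groups. With any 1 of the 4 Sca1+ arrays left out, none of these 4 calls nor those of Dusp4 and Dusp8 held. In MuSC 16 of the 26 were higher, including Hspb3 (at least 15.2-fold) and, in log2 units, Hspb7 (3.08), Hspb2 (3.04), Hspb6 (2.98) and Cryab (2.17), and 1 was lower, the collagen chaperone Serpinh1 (-1.61 ± 0.22, adjusted p = 0.0137). Of 11 chaperones, folding enzymes and other genes of the endoplasmic reticulum stress list, none passed with TSA (median 0.00), and in MuSC none was higher and 3 were lower, Pdia4 (-1.42), Calr (-1.17) and Hsp90b1 (-1.04), with a median of -0.70. As given above, markers of differentiating and smooth muscle were higher on the same arrays as Hspb2, Hspb3, Hspb6 and Hspb7. The small heat shock genes Hspb8 (-0.14) and Cryab (0.39) did not pass with TSA. A link between the markers and these genes was not tested.

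**Figure D5:**
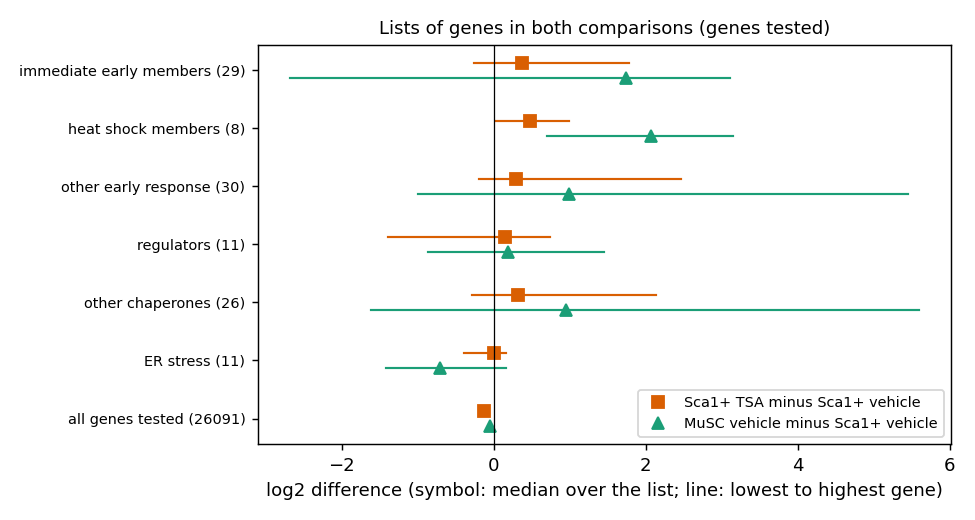
Median log2 difference of each list of genes (symbol) with the range from its lowest to its highest gene (line), and the number of genes tested in brackets: squares, Sca1+ TSA minus Sca1+ vehicle; triangles, MuSC vehicle minus Sca1+ vehicle. The heat shock and immediate early medians in MuSC, 2.07 and 1.75, lie to the right of the median of all genes at -0.04, and that of the ER stress list, -0.70, to its left. The upper line ends of the other early response and other chaperone lists are fitted values of Dusp4 and Hspb3 against vehicle arrays not well above background; the medians are unchanged with such genes at their bounds.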

How the data were processed

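Total RNA of sorted mouse muscle cells was hybridised to 5 Agilent arrays of 1 colour (2 Sca1+ TSA, 1 MuSC vehicle, 2 Sca1+ vehicle), grouped by their labels. Per the file headers, spot intensities come from Agilent Feature Extraction 10.7.3.1, whose processed intensity is background-subtracted and detrended in each array. The deposited value table holds log2 values of the same arrays, with the same ranks and 1 shared distribution per array (medians 4.67 to 4.68); its tool is not given in the sources used here. Flags of 0 or 1 per spot, as deposited, mark spots well above background and outliers.

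The processed intensity was taken as log2 minus the array's 75th percentile over 59305 non-control spots; outlier spots were left out and spots of 1 probe averaged. Names came from RefSeq by accession for 26413 of 55681 probes. A gene was represented by its probe of highest mean signal and was tested if all arrays of 1 or more groups read it well above background. limma 3.58.1 in R 4.3.3 was fitted over all 5 arrays in 3 groups, with 2 residual and 2.30 prior degrees of freedom. The fit was run on simulated data with known changes, in which all arrays varied alike and slides had no effect. That run cannot test whether the MuSC array varies like the Sca1+ arrays. The number of arrays limits the precision. For a lower bound, a dim group's arrays count at their lowest value well above background, or at the probe's value where that is higher. All members are accounted for; array values are given for those called with TSA, the highest-level member of each family and the largest MuSC differences. Members and lists were chosen with earlier results of these data known. Promoters are RefSeq's, in GRCm38.p6; probe positions (mm9) come from the array files. Alternatives were background correction, normalization, filters, probe choice, outlier spots, the deposited table, the slide as a block and leaving out each Sca1+ array. Slide equals replicate number, and 2 pairs cannot show whether numbers pair samples (correlation of slide deviations 0.348; replicate arrays correlated at 0.987 for vehicle and 0.989 for TSA).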

Additional observations from a re-analysis of the deposited data

How the results depend on the processing

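No member tested reversed in a called direction under any of 13 alternatives. The 3 genes called higher with TSA became 15 with normexp correction (on the median spot and background signals, since mean signals are not a column of every file), with 1 lower, Dusp5; 5 with median centring, 4 with quantile normalization, the deposited table or the stricter filter, 0 with no filter, and 0 without any 1 of the Sca1+ arrays (range 0 to 0). The heat shock gene Hspb1 was among those added with normexp, median centring, quantile normalization, the deposited table and the stricter filter. Normexp kept 2 of the 3, Nr4a1 and Dusp2, and moved the median of all genes to -0.25 and their calls to 1252 higher and 5868 lower, from 708 and 70. With the slide as a replicate block, 4 members were higher with TSA (Nr4a2 joined, adjusted p = 0.0466) and 27 in MuSC, 26 without it. Members higher in MuSC numbered 23 to 27, and those lower 2, or 1 with no filter and 1 to 2 with an array left out. The immediate early median with TSA was 0.46 (normexp), 0.41 (quantile and deposited table) and 0.47 (median centring), and 0.36 to 0.42 with an array left out; in MuSC it was 1.45 (normexp), 1.80 (median centring) and 1.71 to 1.75. The heat shock median with TSA was 0.63 (normexp), 0.58 (quantile and median centring), 0.59 (deposited table) and 0.39 to 0.54; in MuSC it was 1.98 (normexp), 2.12 (median centring) and 1.97 to 2.16. The causes were not tested. Limits are 1 MuSC array, 2 arrays in the other groups and dim probes such as Dusp5, Egr3 and Nr4a3, whose signal is near background.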
